A study of Mus musculus with 12 samples.

Results

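Early gavage of ursolic acid in dextran sulfate sodium colitis was compared with colitis alone. The comparison took the 3 UA+DSS and the 3 DSS libraries, 6 of the 12 in the series, chosen by their group labels and compared over all genes. Each change was also set against a position score built from 11 Hox genes, to describe which changes followed the colon position of the tissue and which did not. The score itself differed between the groups, so this division is a description and not a clean separation. RNA of colon tissue from male C57BL/6 mice was sequenced. The mice were 6 weeks old and had 1 week of adaptation. Both groups drank 3% (w/v) DSS (dextran sulfate sodium, a polymer that injures the colon epithelium) for 5 days. The UA+DSS group also got UA (ursolic acid, a plant triterpenoid) by gavage at 200 mg/kg, starting 1 day before DSS, for 7 days by the methods and 9 by the discussion. The Con group had no DSS and no UA. By the methods Con and DSS mice got vehicle by gavage, while the labels call Con untreated. The DSS+UA group drank DSS in the same way and got UA at 200 mg/kg by gavage from day 3. This lasted 4 days by the methods and 5 by the discussion. The Con and DSS+UA libraries served for the spread and for the relation of genes to position. The methods speak of 3 colonic tissues per group and do not give the stretch of colon that was cut. The labels do not tie libraries to mice, so p-values measure only the spread between these libraries.

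Along the mouse large bowel, Hox genes keep the nested order that they take in the embryo. The genes at the posterior end of the clusters (Hoxb13 and the end of the Hoxd cluster) are read near the rectum, and the middle Hoxb genes nearer the caecum. Absorptive cells, bile acid transporters, detoxifying enzymes and lymphoid follicles are also spread unevenly along the bowel. DSS opens the epithelial barrier, and neutrophils and monocytes then enter the mucosa, drawn by chemokines from epithelial, stromal and myeloid cells.

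The 6 libraries held 15566216 to 19204729 counts, and 17658 genes passed the filter on low counts. Levels are CPM (counts divided by the library's own total and brought to a common scale), and fold changes come from edgeR's quasi-likelihood fit of all 12 libraries with TMM scaling. A gene was called when its Benjamini-Hochberg adjusted p over all tested genes was under 0.05. DSS 3 held 2.06% of its counts in pancreatic acinar genes, against 0.0037% to 0.0581% in the other 11 libraries. The mitochondrial share of counts was 1.23% to 2.93% in DSS and 4.21% to 5.58% in UA+DSS. Fewer cells of a type and less RNA per cell cannot be told apart in bulk tissue.

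Many of the Hox genes that mark position differed between the groups. Of the 6 middle Hoxb genes (Hoxb3 to Hoxb8) 5 were called higher in UA+DSS, and 3 of these calls remained without UA+DSS 2. Of the 5 posterior genes (Hoxb13, Hoxd10 to Hoxd13) 2 were called lower and 3 were not called. Hoxb6, of the middle Hoxb genes, lay at 2.26, 1.95 and 0.951 CPM in the DSS libraries and at 56.8, 91.1 and 33.2 CPM in the UA+DSS libraries. Hoxb13 lay at 216, 77.4 and 91.3 CPM in DSS and at 0.385, 0.0625 and 13.2 CPM in UA+DSS. The groups did not overlap for either gene, and UA+DSS 3 held the most Hoxb13 of its group. Hoxd13 stood at 94.6, 21.5 and 3.22 CPM in DSS and had 3 counts in all of UA+DSS, so DSS was 692-fold higher (95% exact interval 236 to 3356, counting error only). Hoxd12 had no count in UA+DSS, and its summed level in DSS was at least 26.2-fold higher, with a floor of 3 counts over the group. Hoxb6 kept its call without UA+DSS 2, while Hoxb13 and Hoxd13 lost theirs without it and without 7 other libraries each, among them DSS 1, DSS 2 and UA+DSS 1. Hoxd10 was not ordered this way, with 3.08, 2.30 and 0.317 CPM in DSS against 3.02, 5.75 and 0.851 CPM in UA+DSS. Hoxd11 was not called either. Its log2 fold change ran from -1.46 without DSS 3 to 0.25 without DSS 1.

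The position score is the mean log2 CPM of the rectal genes (Hoxb13, Hoxd10 to Hoxd13) less the mean of the caecal genes (Hoxb3 to Hoxb8), so that a high value lies toward the rectum. It was 3.10, 1.35 and 0.37 in the DSS libraries and -4.88, -5.70 and -4.16 in the UA+DSS libraries. The Con libraries lay at 5.53, -3.03 and -1.83, the widest spread of the 4 groups, and the DSS+UA libraries at 4.11, 4.47 and 5.06. UA+DSS thus held the 3 lowest scores of the series, and its mean was 6.51 below that of DSS. Of the score's variance, 74.4% lay between groups. Of the variance within groups, which alone gives the relation of a gene to the score, 88.7% came from Con and 7.92% from DSS.

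**Figure D1:**
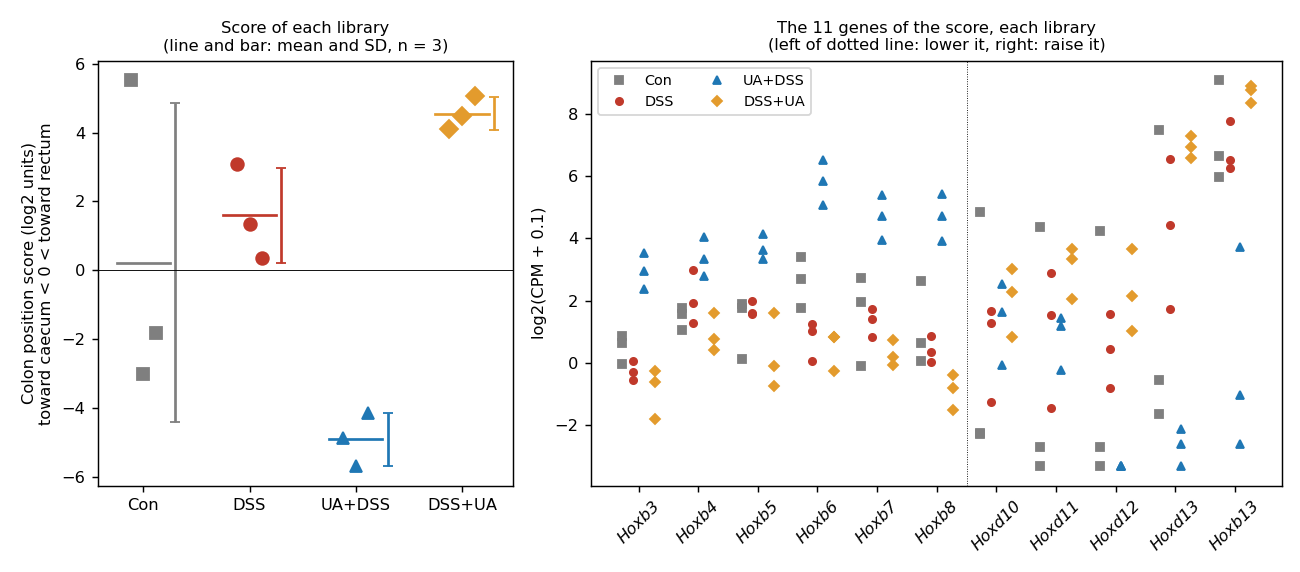
Position score (log2 scale, higher toward the rectum) of each of the 12 libraries by group, with the mean and SD of the 3 libraries of a group (left), and the level (log2 of CPM plus 0.1) of the 11 score genes in each library (right). The UA+DSS libraries lie between -5.70 and -4.16, below all others, and the Con libraries spread from -3.03 to 5.53.

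Without the score, 3300 of the 17658 genes were called, 18.7% of those tested. Of these, 1450 were raised (8.21%) and 1850 lowered (10.5%) in UA+DSS. The counts of list members called below are to be read beside these shares of all tested genes. At an unadjusted p under 0.05 this fit gave 6106 of the 17658 genes. List counts at an unadjusted p without the score are to be read beside that number. For 3243 of the 3300 called genes no DSS library lay within the UA+DSS range or the reverse, as for 42.8% of all tested genes. These calls rested most on UA+DSS 2, without which 183 were made, all among the 3300. Without DSS 1, DSS 2, UA+DSS 1 or UA+DSS 3 there were 1722, 1816, 1936 and 1390 calls. Every gene named here as raised or lowered lost its call without UA+DSS 2, unless it is said to have kept it.

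With the score added to the fit, edgeR called 3 genes (0.017%), and DESeq2 1464 and limma-voom 17. At an unadjusted p under 0.05 edgeR gave 3808 genes, 21.6% of those tested. Standard errors grew by a median factor of 1.45. The size of the changes moved less than the calls did. Of the called genes outside the score, 2760 (83.8%) kept at least 50% of their log2 fold change with the score, 514 kept less, and 19 turned. The median share kept was 84.9%, with 78.4% for the raised and 89.0% for the lowered genes.

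The slope of a gene on the score was called for 221 genes (1.25% of those tested), 89 higher toward the rectum and 132 higher toward the caecum. Of the 3300 changed genes, 45 also had a called slope, a share of 1.36% that is near that of all tested genes. All 45 changed in the direction that the slope and the score predict, 39 upward and 6 downward. The slope rests on Con 1, the 1 Con library with a high score: without it 1 slope was called, and the genes at an unadjusted p under 0.05 with the score fell to 240. Of the 49 gene lists with at least 7 tested members, the median with the score turned in 12 without Con 1 and moved by over 1.5 times in 18 more. The score of UA+DSS lay below those of the other 9 libraries, so the fit extends the slope past the range in which it was measured.

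**Figure D2:**
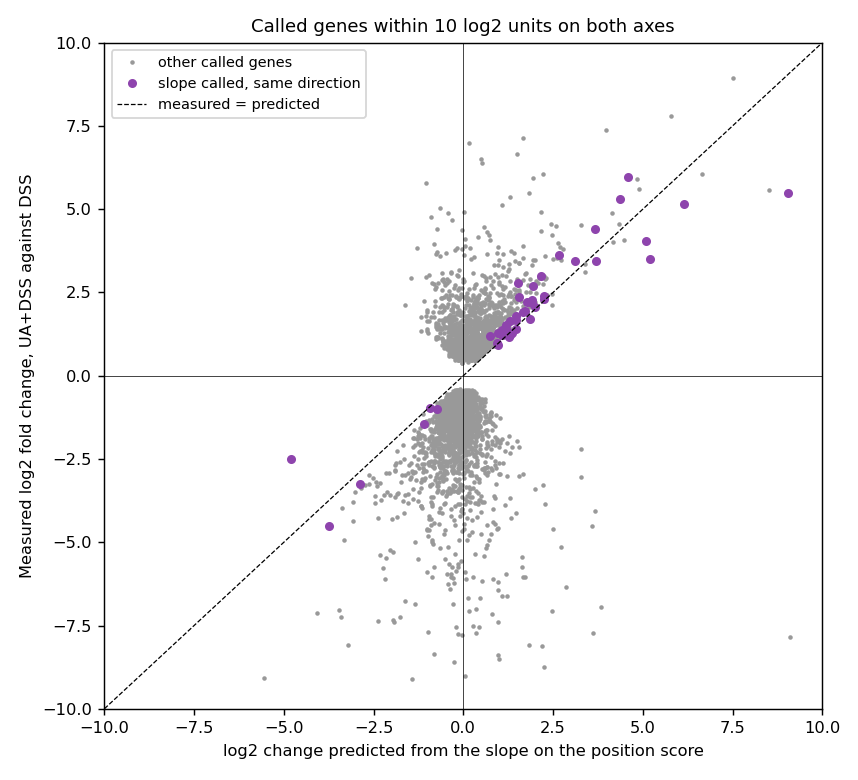
Measured log2 fold change of UA+DSS against DSS (vertical) against the change predicted from each gene's slope on the position score (horizontal) for 3280 called genes, with 13 more outside the axes. The 45 called genes with a called slope are marked and lie where both changes have the same sign, while most other genes are spread vertically around a prediction near 0.

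Of the changed genes with a called slope, those with the smallest slope p are described first, and that p is what chose them. Slc35d1, a transporter of nucleotide sugars in the endoplasmic reticulum, had the smallest slope p among raised genes. It lay at 21.9, 24.5 and 40.5 CPM in DSS, at 102, 140 and 85.8 CPM in UA+DSS, while Con held 17.9, 84.2 and 53.4 CPM. The Con library with the high score stood at the level of DSS, and the other Con libraries stood between DSS and UA+DSS. Its log2 fold change was 1.91 ± 0.45 (SE, edgeR adjusted p = 0.0197, range over the alternatives 0.000488 to 0.0832), of which position predicted 1.66. Aldh1a1, which makes retinoic acid from retinal, lay at 27.7, 61.8 and 68.9 CPM in DSS, 403, 534 and 323 CPM in UA+DSS, with 36.5, 286 and 145 CPM in Con. A log2 fold change of 2.99 ± 0.63 (edgeR adjusted p = 0.0146, range 8.15e-06 to 0.0659) stood beside a predicted 2.16. Slc35d1 lost its call without DSS 1 or DSS 2 too.

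Abhd6 and Mgll, both lipases of monoacylglycerols, rose by 1.51 and 1.16 on the log2 scale, with 1.20 and 1.28 predicted. Mier3, a partner of histone deacetylases, rose by 1.21 with 1.31 predicted. In the other direction, Cd55, which shields cells from complement, fell by 1.00 with a predicted -0.73. Its levels were 82.6, 86.1 and 78.9 CPM in DSS against 36.8, 40.0 and 47.0 CPM in UA+DSS, with 73.8, 39 and 36.4 CPM in Con. Here too the Con library with the high score stood near DSS and the other two near UA+DSS. P2ry6, a receptor for UDP, and Pear1, a receptor of platelets and endothelium, fell by 0.96 and 1.44, with predictions of -0.94 and -1.09. Atp12a, the potassium pump of the distal colon, fell by 4.51 with a predicted -3.74, and Ly6g, the surface marker of neutrophils, fell by 3.26 with a predicted -2.88. Ly6g was the 1 gene of the neutrophil lists with a called slope, at 112 CPM in Con 1 against 8.26 and 11.6 CPM in Con 2 and Con 3. The whole neutrophil granule and surface list summed to 12.4 to 118 CPM in Con, so Ly6g made up nearly all of it in Con 1. Whether its counts there came from neutrophils was not tested, and its slope does not stand for the other neutrophil genes. Each gene from Abhd6 to Ly6g lost its call without UA+DSS 2. Cd55 also lost it without UA+DSS 1, Pear1 without UA+DSS 3, and Mgll, Mier3, P2ry6, Atp12a and Ly6g without 5 or more libraries, among them DSS 1, DSS 2 and UA+DSS 1.

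A second set of genes, which overlaps the first, was higher in UA+DSS than in every other library. Of the 1450 raised genes, 173 (11.9%) had all 3 UA+DSS libraries above the other 9, against 1.90% of all tested genes. Of the 39 raised genes with a called slope, 14 were among the 173. For lowered genes 112 (6.05%) lay below the other 9, against 1.72%. The DSS libraries are among these 9, so the calling itself raises both shares, and they are given as a description only. Osr2, a zinc finger transcription factor, lay at 1.49, 1.10 and 0.158 CPM in DSS and at 72.7, 135 and 45 CPM in UA+DSS, with 0.160 to 0.499 CPM in Con. Its log2 fold change was 6.50 ± 0.75 (edgeR adjusted p = 0.00501, range 1.04e-18 to 0.0304), of which position predicted 0.49. Hoxb6, itself part of the score, changed by 5.12 ± 0.57 with 1.02 predicted from its own slope, and 5 of the 6 score genes toward the caecum lay above the other 9 libraries.

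Slc10a2, which takes up bile acids at the apical membrane, lay at 14.0, 3.86 and 13.4 CPM in DSS and at 119, 308 and 99.2 CPM in UA+DSS, against 3.26 to 6.99 CPM in Con. It changed by 4.07 ± 0.64 (edgeR adjusted p = 0.00902, range 2.03e-10 to 0.039), with 0.74 predicted. Ces2b, a carboxylesterase, lay at 0.914, 0.902 and 0.158 CPM in DSS, 30.0, 23.9 and 12.1 CPM in UA+DSS, and 1.39 to 4.91 CPM in Con. The groups were separate for each of these genes, and each kept its call without UA+DSS 2. For such genes a small predicted change means a flat slope among the other libraries, none of which reached the scores of UA+DSS, and whether they vary with position there was not tested.

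**Figure D3:**
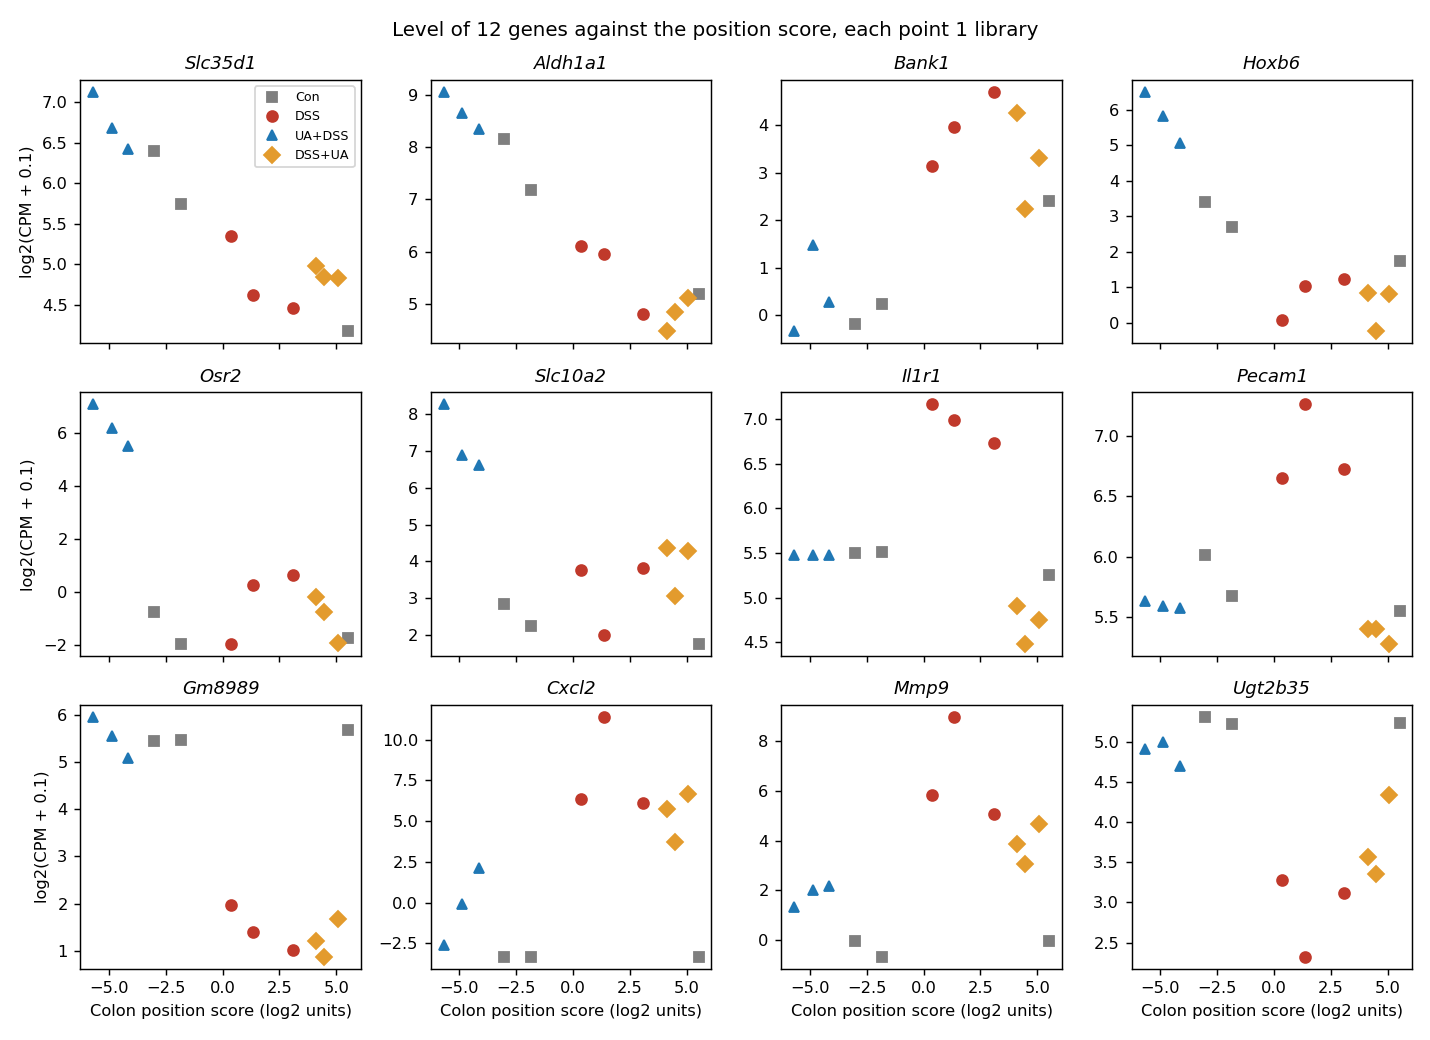
Level (log2 of CPM plus 0.1) of 12 genes against the position score in the 12 libraries, coloured by group. Slc35d1 and Aldh1a1 fall steadily from the caecal to the rectal side, Osr2 and Slc10a2 are high in the 3 UA+DSS libraries alone, and Il1r1 is high in the 3 DSS libraries alone.

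The 3 genes called with the score were Il1r1, Gm8989 and Mnx1, with predicted changes of 0.26, 0.03 and -2.59. Il1r1, the signalling receptor for interleukin 1 (chr1:40225080-40317257, GRCm38), lay at 106, 127 and 143 CPM in the DSS libraries. It lay at 44.5 CPM in each UA+DSS library and at 38.1, 45 and 45.6 CPM in Con, so UA+DSS fell within the Con range. Its log2 fold change was -1.50 ± 0.16 (edgeR adjusted p = 0.00378, range 2.92e-15 to 0.0281) and -1.76 ± 0.21 with the score. Gm8989 (chr7:106323414-106330688) lay at 1.92, 2.55 and 3.80 CPM in DSS, 46.8, 61.7 and 33.9 CPM in UA+DSS, and 43.6 to 51.2 CPM in Con. It rose by 4.10 ± 0.32 and, with the score, by 4.07 ± 0.45 (2.31 without Con 1), but 78.6% of its stretches of 50 bases also occur in other genes, so its counts are uncertain. Il1r1 and Gm8989 kept their call without UA+DSS 2.

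Mnx1, a homeobox factor, lay at 0.481, 0.150 and 0.317 CPM in DSS and at 2.12, 1.81 and 1.70 CPM in UA+DSS, near the lowest levels tested. It was not called without the score (adjusted p = 0.0605, range 0.0103 to 0.166). With the score its log2 fold change was 5.21 ± 0.62, against 2.54 ± 0.86 without. The 3 genes shared an adjusted p of 0.0382 with the score, and none of the 3 kept that call without Con 1, Con 2, Con 3, DSS 1, UA+DSS 1, UA+DSS 2, DSS+UA 1 or DSS+UA 3.

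The changed genes with the next smallest p in the fit with the score are given as a description, since that p chose them. Gja1, the gap junction protein connexin 43, lay at 120, 182 and 129 CPM in DSS and at 40.6, 41.2 and 45.7 CPM in UA+DSS. Its log2 fold change was -1.76 ± 0.19 without and -1.68 ± 0.29 with the score (edgeR adjusted p = 0.00378 and 0.0702). Zfp467, a zinc finger factor, rose by 1.54 ± 0.21, from 12.2 to 15.5 CPM in DSS to 38.0 to 43.9 CPM in UA+DSS, and Gja1, Zfp467 and Gm9824 kept their call without UA+DSS 2. Sik1, a kinase induced by cyclic AMP, fell by 1.89 ± 0.36, and Gm9824 by 2.19 ± 0.32. Eppk1, the cytolinker epiplakin, rose by 1.40 ± 0.25, and Naip6, a member of the flagellin and secretion sensor family, by 1.17 ± 0.27. Gm13648 rose by 1.42 ± 0.37. Naip6 lost its call without DSS 2 too, and Gm13648 without DSS 1, DSS 2, DSS 3 or UA+DSS 3. Counts of Naip6 and Gm9824 are uncertain because of shared stretches, and those of Gm13648 and Eppk1 because they overlap other genes on their strand.

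All 7 tested genes of the neutrophil chemokine list, which also holds receptors, were lowered, beside 10.5% of all genes. The chemokines are small proteins that bind the receptor CXCR2 on neutrophils. The promoters of 3 of the 7 genes that are in the RefSeq promoter table, Cxcl1, Cxcl2 and Cxcl3, hold the NF-kappaB consensus motif (10 bases, either strand) within 250 bases before the start. So does the promoter of Il6, and 5.67% of all 27025 genes in the table have it. Il6 is the 1 gene with the motif among 21 of its cytokine list (4.76%), and the neutrophil granule list has 1 of 17. The 100 bases that end before the annotated start are shown for these 4 genes (GRCm38.p6, plus strand, motif in capitals), each of which was called lower.
Cxcl1 (chr5:90891141-90891240): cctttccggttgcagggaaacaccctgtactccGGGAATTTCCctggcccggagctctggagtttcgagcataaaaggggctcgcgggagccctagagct
Cxcl2 (chr5:90903771-90903870): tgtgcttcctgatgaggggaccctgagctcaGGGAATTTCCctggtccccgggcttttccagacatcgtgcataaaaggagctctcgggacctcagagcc
Cxcl3 (chr5:90786001-90786100): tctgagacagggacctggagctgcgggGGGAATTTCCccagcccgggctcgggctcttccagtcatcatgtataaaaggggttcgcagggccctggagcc
Il6 (chr5:30013014-30013113): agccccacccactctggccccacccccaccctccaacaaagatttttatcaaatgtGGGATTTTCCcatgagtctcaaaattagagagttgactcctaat
The motif ends 62, 88, 64 and 35 bases before the RefSeq start of these genes, in the order printed.

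Cxcl1 lay at 17.8, 67.1 and 59.1 CPM in DSS and at 2.18, 0.375 and 3.24 CPM in UA+DSS, and Con held 0.160 to 0.828 CPM. Its log2 fold change was -4.62 ± 0.81 (edgeR adjusted p = 0.0101, range 2.21e-08 to 0.0449), and it kept its call without UA+DSS 2. Cxcl2 lay at 70.8, 2682 and 80.6 CPM in DSS and at 0.834, 0.0625 and 4.25 CPM in UA+DSS. Cxcl3 lay at 14.6, 610 and 18.6 CPM in DSS and at 0.321, 0.0625 and 0.798 CPM in UA+DSS. The groups were separate for all 3, and DSS 2 stood far above the other DSS libraries for Cxcl2 and Cxcl3. The receptor Cxcr2, counted in the same list, showed the same order, with 20.4, 373 and 20.1 CPM in DSS against 0.257, 0.50 and 1.17 CPM in UA+DSS.

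The median log2 fold change of the 7 genes was -5.28, beside -0.02 over all genes, and -3.77 with the score. The value with the score was -0.91 over the same 7 genes without DSS 1, where 3 of them turned upward, and -6.56 with the caecal genes of the score alone. The summed level of the list was 249 to 4152 CPM in DSS, 10.9 to 26.7 CPM in UA+DSS, 5.66 to 18.6 CPM in Con and 149 to 233 CPM in DSS+UA. Without UA+DSS 2, UA+DSS 1 or UA+DSS 3, edgeR called 1, 4 and 3 of the 7, and Cxcl2 and Cxcl3 were lost each time. DESeq2 and limma-voom called 4 each.

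Genes of neutrophil granules and surface fell with them, 15 of 16 tested, by a median log2 of -6.12 (-5.61 with the score). Their summed level was 1096 to 22689 CPM in DSS and 44.6 to 187 CPM in UA+DSS. Mmp9, the gelatinase of neutrophil granules, lay at 33.6, 493 and 55.9 CPM in DSS and at 3.98, 2.44 and 4.41 CPM in UA+DSS. It fell by 5.74 ± 1.01 on the log2 scale (edgeR adjusted p = 0.0101, range 5.82e-11 to 0.0609). Trem1, an amplifying receptor of myeloid cells, and Clec4d, a C-type lectin of the same cells, fell by 8.37 and 6.04. DSS 2 was again the highest library, and without it 11 of the 16 were called and the median was -3.42. Without UA+DSS 2 no gene of the list was called, without UA+DSS 1 there were 9, and DESeq2 and limma-voom gave 6 each.

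Of 24 macrophage and monocyte markers 15 fell (median log2 of -1.91), and of 15 CC chemokines that draw monocytes and eosinophils 8 fell (median -2.13). Cd68, a lysosomal glycoprotein of macrophages, lay at 62.2, 61.4 and 35.8 CPM in DSS and at 11.4, 7.93 and 7.55 CPM in UA+DSS. Marco, a scavenger receptor, fell by 4.44 ± 0.74. Ccl2, the main monocyte chemokine, lay at 18.9, 38.3 and 58.4 CPM in DSS and at 4.23, 1.56 and 5.16 CPM in UA+DSS, and fell by 3.39 ± 0.55. Ccl11, the eosinophil chemokine eotaxin, fell by 2.43 ± 0.46. With the score the medians were -1.45 for the markers and -2.10 for the chemokines, and without Con 1 they became 0.053 and -1.28. Calls without UA+DSS 2 were 0 of 24 and 2 of 15, with Ccl2 kept, and without UA+DSS 3 they were 5 and 3.

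Cytokines of the interleukin 1, interleukin 6 and tumour necrosis factor families and their receptors fell in 18 of 22 cases and rose in none. The median was -2.38, and -2.25 with the score. Il6 lay at 7.12, 10.4 and 26.6 CPM in DSS and at 0.192, 0.0625 and 1.12 CPM in UA+DSS, a change of -4.94 ± 1.14 (edgeR adjusted p = 0.0183, range 3.27e-05 to 0.0805). Il33, an alarmin held in nuclei of epithelium and stroma, lay at 75.4, 91.9 and 89.8 CPM in DSS and at 12.4, 6.56 and 10.2 CPM in UA+DSS. It fell by 3.14 ± 0.48. Osmr, the receptor for oncostatin M, lay at 49.1, 57.4 and 49.5 CPM in DSS and at 16.7, 21.5 and 20.7 CPM in UA+DSS, and fell by 1.40 ± 0.17. Il33 and Osmr kept their call without UA+DSS 2, where 5 of the 22 were called, and Il6 lost it there and without UA+DSS 1. Without DSS 2 the median was -1.36 and 16 were called.

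The interleukin 17, 22 and 23 genes did not move one way, with 3 raised and 1 lowered of 10 tested. Il17re, the epithelial receptor chain for interleukin 17C, rose by 1.44 ± 0.35, from 3.06 to 9.04 CPM in DSS to 12.8 to 20.5 CPM in UA+DSS. Il17ra, the shared receptor chain, fell by 1.61 ± 0.43, with 145 CPM in DSS 2 against 42.0 and 36.2 CPM in the other DSS libraries. None of the 10 was called without UA+DSS 2 or without UA+DSS 3, and 2 were without DSS 2 or without UA+DSS 1, where Il17ra lost its call in the second case.

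Of 24 genes of NF-kappaB feedback and Toll-like receptors 11 fell and 1 rose (median log2 of -1.35, and -1.06 with the score). Tlr13 and Tlr8, endosomal sensors of RNA, fell by 3.07 ± 0.50 and 2.55 ± 0.50. Without DSS 2 the median was -0.46 and 7 genes were called, and without UA+DSS 2 none was. Of 18 genes of nitric oxide, oxidases, itaconate and prostaglandins 8 fell and 3 rose. Ptgs2, the inducible cyclooxygenase, lay at 58.1, 195 and 137 CPM in DSS and at 6.99, 3.06 and 10.3 CPM in UA+DSS, against 5.02 to 9.84 CPM in Con. It fell by 4.25 ± 0.63, and Ptges, the prostaglandin E synthase that acts after it, fell by 2.91 ± 0.41, both also without UA+DSS 2. The list's calls went from 11 to 3 when UA+DSS 2 or UA+DSS 3 was left out, 6 when UA+DSS 1 was and 7 when DSS 2 was.

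Of 14 acute phase and antimicrobial genes 5 fell, with a median of -0.41, and -1.90 with the score (0.61 without Con 1). Lbp, which carries lipopolysaccharide, fell by 1.94 ± 0.30, from 38.1, 16.3 and 22.7 CPM in DSS to 5.58, 6.50 and 7.92 CPM in UA+DSS. Lrg1, an acute phase glycoprotein, fell by 3.49 ± 0.70. Without UA+DSS 2 1 gene of this list, Lbp, was called, and without UA+DSS 1 2.

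Of 25 type I interferon-stimulated genes 1 rose and none had a called slope on the score. All 25 had a higher fitted mean in UA+DSS, as did 48.8% of all tested genes, and the median log2 fold change was 1.59, as was the median predicted from position. With the score the median was 0.00, but 2.52 without Con 1, and -1.25 and 0.49 with the caecal or the rectal genes of the score alone. At an unadjusted p under 0.05, 9 of the 25 had a slope, against 18.5% of all genes. edgeR called 1 of the 25, DESeq2 15 and limma-voom 1, and edgeR called 11 without Con 1 and none without DSS 2 or UA+DSS 2. Ifih1, a sensor of double-stranded RNA, was the called gene, and lost its call without DSS 1 as well. It lay at 58.7, 49.2 and 56.7 CPM in DSS, 103, 178 and 100 CPM in UA+DSS, with 60.8, 147 and 128 CPM in Con. Irf7, the factor that amplifies the interferon response, lay at 108, 66.4 and 44.2 CPM in DSS and at 234, 662 and 303 CPM in UA+DSS (edgeR adjusted p = 0.0529, range 0.00388 to 0.19).

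Of 21 genes of the interferon gamma response and interferon-inducible GTPases edgeR called none, DESeq2 3 and limma-voom none. At an unadjusted edgeR p under 0.05 there were 3 of the 21, beside 6106 of all 17658 genes. Of 10 MHC class II genes 1 fell, beside 10.5% of all genes. It was H2-DMb2, from 41.8, 20.4 and 7.92 CPM in DSS to 2.25, 2.44 and 2.87 CPM in UA+DSS. Its counts are uncertain because of shared stretches. The log2 fold change of H2-DMb2, -3.21, became -0.70 with the score and 0.80 with the score but without Con 1, and the gene lost its call without DSS 1, DSS 2 or any UA+DSS library.

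Of 16 B cell and follicle genes 9 fell, and 2 of the 16 had a called slope. The median was -3.28, of which position predicted -2.54, and with the score it was -0.45. That value became 0.10 without Con 1, and -1.30 and -1.46 with the rectal or the caecal genes of the score alone. At an unadjusted p under 0.05, 14 of the 16 had a slope on the score, as did 18.5% of all genes. Bank1, a scaffold of B cell receptor signalling, lay at 26.0, 15.6 and 8.72 CPM in DSS and at 2.69, 0.687 and 1.12 CPM in UA+DSS. Con held 5.22, 0.777 and 1.07 CPM, highest in the library with the high score. Cd79a, a chain of the B cell receptor, fell by 2.63 ± 0.65, from 102, 49.1 and 20.5 CPM to 12.3, 7.18 and 8.24 CPM. No gene of the list was called without DSS 1 or UA+DSS 2, 4 were without DSS 2, 3 without UA+DSS 1, 1 without UA+DSS 3 and 15 without Con 1, and DESeq2 called all 16. Bank1 and Cd79a lost their call without DSS 1, UA+DSS 2 or UA+DSS 3.

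Other lymphoid lists held fewer calls than the B cell list, beside 10.5% of all genes lowered. Of 19 T cell genes 4 fell, among them Ccr7, the homing receptor of naive T cells and dendritic cells, by 3.78 ± 0.71, and Il2ra, a chain of the interleukin 2 receptor, by 2.25 ± 0.53. Of 17 plasma cell genes 3 fell, among them Ighg2b, from 566, 122 and 136 CPM to 63.9, 33.5 and 31.3 CPM, and Ighm, from 263, 101 and 57.3 CPM to 28.2, 16.1 and 21.4 CPM. With the score the changes of Ighg2b and Ighm became -1.60 and -0.61, from -2.68 each, and without Con 1 these turned to 1.12 and 1.28. Of 18 genes of cytotoxic and intraepithelial lymphocytes 1 fell, Cd244a. Of 11 dendritic cell genes edgeR called none (4 at an unadjusted p under 0.05, beside 6106 of 17658 genes), DESeq2 2 and limma-voom 1. None of these calls remained without UA+DSS 2. Il2ra and Cd244a lost theirs without DSS 2 or UA+DSS 3 too, Ighg2b without UA+DSS 3, and Ighm without any 1 of the 6 libraries but DSS 3. Of 12 genes of mast cells and eosinophils, Kit rose by 1.52 ± 0.34, with 1.12 predicted, and Il5ra, the interleukin 5 receptor of eosinophils, fell by 3.82 ± 0.89. Kit is also read in the pacemaker cells of the gut wall.

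Epithelial genes of detoxification and bile acid handling were raised. Of 28 genes of glucuronidation, sulfation and glutathione conjugation 15 rose and none fell, beside 8.21% of all genes raised. Their median was 1.07, with 0.04 predicted from position and 0.89 with the score. Ugt2b35, a glucuronosyltransferase, lay at 8.61, 4.91 and 9.61 CPM in DSS, 31.9, 30.0 and 25.7 CPM in UA+DSS, and 37.1 to 39.4 CPM in Con. It rose by 1.92 ± 0.29 (edgeR adjusted p = 0.00749, range 8.64e-08 to 0.039) and by 1.93 ± 0.44 with the score. Sult1d1, a sulfotransferase, lay at 50.8, 61.2 and 107 CPM in DSS and at 391, 718 and 358 CPM in UA+DSS. It rose by 2.75 ± 0.43, with 0.98 predicted. Both kept their call without UA+DSS 2, where 5 of the list were called, and without DSS 1 there were 8.

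In contrast, Ugt2b5 of the same family lay at 0.0481, 1.35 and 0.634 CPM in DSS, 44.9, 65.2 and 26.1 CPM in UA+DSS, with 0, 22 and 10.4 CPM in Con. Its change of 6.06 ± 1.56 stood beside a predicted 6.65 and became -0.40 with the score (1.48 without Con 1). Its call was lost without any 1 of the 6 libraries, and its counts are uncertain because of shared stretches. Of 23 cytochrome P450 genes 11 rose (median 1.33, and 0.95 with the score, 0.15 without Con 1). Cyp2s1 rose by 2.19 ± 0.40, from 12.8 to 31.9 CPM in DSS to 66.3 to 136 CPM in UA+DSS, and Cyp2j6 by 1.33 ± 0.25. None of the P450 genes was called without UA+DSS 2, while leaving out UA+DSS 3 or DSS 1 gave 4 calls and UA+DSS 1 or DSS 3 gave 6.

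Of 13 genes of bile acid transport and sensing 7 rose (median 1.77, and 1.17 with the score, 0.25 without Con 1). Beside Slc10a2, Nr1h4, the bile acid receptor FXR, lay at 46.6, 30.3 and 71.3 CPM in DSS and at 159, 220 and 126 CPM in UA+DSS, and rose by 1.77 ± 0.34. Con held 45.5 to 79.9 CPM, so UA+DSS stood above Con as well. Without UA+DSS 2 only Slc10a2 of the list was called.

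Of 36 fatty acid oxidation genes 20 rose and 1 fell. The median was 0.96, with 0.26 predicted and 0.45 with the score. Ehhadh, an enzyme of peroxisomal oxidation, lay at 20.4, 15.7 and 25.5 CPM in DSS, 54.7, 70.7 and 51.5 CPM in UA+DSS, and 39 to 59.6 CPM in Con. It rose by 1.52 ± 0.24 (edgeR adjusted p = 0.00825, range 1.38e-06 to 0.0436). The lowered gene was Acsl4, the acyl-CoA synthetase of arachidonic acid, with 83.5, 107 and 102 CPM in DSS against 41.0, 23.6 and 33.0 CPM in UA+DSS. These 2 were the members called without UA+DSS 2, and without DSS 1 or UA+DSS 3 there were 11 and 12 calls. Of 17 genes of butyrate uptake and ketogenesis 4 rose and 2 fell (median 0.57, and 0.39 with the score), among them Acss1, a mitochondrial acetyl-CoA synthetase, which rose by 1.40 ± 0.30. Of these, 1 was called without UA+DSS 2, and leaving out UA+DSS 1 or UA+DSS 3 gave 3. Cholesterol synthesis held no call by edgeR (2 genes at an unadjusted p under 0.05) or limma-voom and 1 by DESeq2, with a median of 0.10 over 22 genes.

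Of 28 genes of the AMPK and FoxO pathways 9 rose and 2 fell, with a median of 0.32, and 0.01 with the score. Ppargc1a, the coactivator of mitochondrial biogenesis, lay at 10.8, 6.41 and 8.29 CPM in DSS and at 19.8, 71.8 and 37.3 CPM in UA+DSS, and rose by 2.33 ± 0.39. Pck1, the FoxO target that opens gluconeogenesis, lay at 18.2, 45.8 and 49.7 CPM in DSS, 118, 198 and 150 CPM in UA+DSS, and 150 to 166 CPM in Con. It rose by 2.04 ± 0.40, and by 1.86 ± 0.59 with the score, which became -0.19 without Con 1. Without UA+DSS 2 the call of Ppargc1a was the 1 that remained, and without DSS 1 or DSS 2 there were 6 and 7. Counts of Ppargc1a are uncertain, since other annotated genes overlap it on its strand.

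Of 18 citric acid cycle genes 3 rose (median 0.45), among them Sdhb and Suclg1 at 0.82 ± 0.21 and 0.86 ± 0.26. None was called without DSS 2 or any 1 of the UA+DSS libraries, and Suclg1 was lost without DSS 1 too. Of 13 messenger RNAs of the mitochondrial genome 4 rose, with a median of 1.09, and 0.98 with the score (-0.75 without Con 1). No mitochondrial call remained without DSS 1, DSS 2 or UA+DSS 2, and 1 did without UA+DSS 1. Of 17 glycolysis genes 6 fell and none rose. Hif1a, the hypoxia factor, lay at 259, 417 and 376 CPM in DSS and at 123, 42.9 and 129 CPM in UA+DSS, fell by 1.83 ± 0.35, and was the glycolysis list's 1 call without UA+DSS 2. Without UA+DSS 1 or UA+DSS 3 there were 3.

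Among epithelial cell types, 2 of 20 goblet cell genes rose (median 1.15, and 1.26 with the score), beside 8.21% of all genes. They were Atoh1, the master factor of the secretory lineage, and Ern2, the goblet cell stress sensor. Atoh1 lay at 24.7, 7.66 and 29.3 CPM in DSS and at 91.8, 69.4 and 76.7 CPM in UA+DSS, against 70.7 to 91.0 CPM in Con, and rose by 1.95 ± 0.38. DESeq2 called 6 goblet genes, and edgeR 6 without DSS 3, 1 without DSS 1, UA+DSS 1 or UA+DSS 3 and none without UA+DSS 2. Of 19 tight junction genes 7 rose and 1 fell. Marveld2, which seals the corners between 3 cells, rose by 0.87 ± 0.15, from 21.2, 21.2 and 29.5 CPM to 43.6, 45 and 43.4 CPM, with 0.16 predicted. Cldn23, a claudin of surface colonocytes, rose by 1.88 ± 0.39 with 0.86 predicted. No tight junction gene was called without UA+DSS 2, 3 were without DSS 1 or UA+DSS 3, 4 without DSS 2 and 13 without DSS 3.

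Of 25 genes of colonocyte ion and water transport 4 rose and 1 fell, beside 18.7% of all genes called. Their median was 0.86, and 0.43 with the score (0.067 without Con 1). Car1, a carbonic anhydrase of surface colonocytes, lay at 546, 202 and 1644 CPM in DSS, 6524, 9357 and 4602 CPM in UA+DSS, with 769, 3796 and 1788 CPM in Con. It rose by 3.10 ± 0.75, with 1.74 predicted, and its counts are uncertain because of shared stretches. Slc9a2, a sodium and proton exchanger, rose by 2.39 ± 0.56 with 1.24 predicted, and lost its call without DSS 2 too. No gene of this list was called without DSS 1 or UA+DSS 2, 2 without UA+DSS 3 and 13 without DSS 3. Of 17 enteroendocrine genes 4 rose, among them Chga, the granin of hormone granules, by 1.21 ± 0.27, with a predicted -0.24. Nts, neurotensin, rose by 5.14 ± 1.33 with 6.15 predicted, and became -0.79 with the score (2.24 with the rectal genes of the score alone). It lost its call without DSS 1, DSS 2, DSS 3 or UA+DSS 1 as well. Enteroendocrine calls numbered 0 without UA+DSS 2, 2 without UA+DSS 1 and 3 without DSS 1.

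Genes of the fetal-like repair epithelium were lowered in 9 of 20 cases and raised in none (median -1.48, and -1.43 with the score). Ereg, a ligand of the EGF receptor, lay at 174, 148 and 315 CPM in DSS, 27.2, 16.2 and 48.8 CPM in UA+DSS, and 5.28 to 11.6 CPM in Con. It fell by 2.78 ± 0.48 (edgeR adjusted p = 0.00998, range 2.18e-07 to 0.0507). Stem cell and Wnt target genes held 2 raised and 1 lowered of 18, beside 18.7% of all genes called. Rnf43, which removes Wnt receptors, rose by 0.65 ± 0.20 and lost its call without any 1 of the 6 libraries but DSS 3. Of 25 cell cycle genes 20 fell, by a median of -1.02, and -0.82 with the score (-0.28 without Con 1). Rrm2, the ribonucleotide reductase subunit of S phase, lay at 82.2, 70.9 and 68.0 CPM in DSS, 28.5, 15.9 and 28.9 CPM in UA+DSS, and 19.9 to 22.2 CPM in Con. UA+DSS 2 was the lowest library, and without it 1 repair gene and no cell cycle or stem cell gene was called. Without DSS 1, 5 cell cycle genes were called. Stem cell calls were 0 without DSS 2, UA+DSS 1 or UA+DSS 3 as well, and 8 without DSS 3.

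Among the stromal lists, those of metalloproteinases, fibroblasts, collagens and endothelium held many lowered genes. Of 21 matrix metalloproteinase and plasminogen genes 17 were lowered and none raised (median -2.58, predicted -0.10, and -2.66 with the score). Adamts4, which cleaves proteoglycans, lay at 122, 48.7 and 80.8 CPM in DSS, 6.48, 4.44 and 13.0 CPM in UA+DSS, and 0.724 to 1.55 CPM in Con. It fell by 3.39 ± 0.46 (edgeR adjusted p = 0.00717, range 2.65e-11 to 0.0367). Mmp19, of uncertain counts because of shared stretches, fell by 2.58 ± 0.36. Both kept their call without UA+DSS 2, where 4 of the list were called, and without UA+DSS 1 there were 11.

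Of 25 fibroblast and growth factor genes 16 fell (median -1.51, predicted 0.02). Fgf7, the keratinocyte growth factor of stroma, lay at 22.6, 42.0 and 43.8 CPM in DSS and at 6.74, 3.0 and 6.06 CPM in UA+DSS, below the 11.6 to 15.2 CPM of Con. It fell by 2.78 ± 0.33. Pdpn, podoplanin of activated fibroblasts and lymphatic vessels, lay at 60.6, 51.9 and 54.5 CPM in DSS and at 13.7, 6.81 and 15.4 CPM in UA+DSS, and fell by 2.22 ± 0.30. Tgfb1 lay at 78.0, 113 and 56.4 CPM in DSS, 27.3, 14.8 and 21.1 CPM in UA+DSS, and 15.5 to 21.0 CPM in Con. It fell by 1.97 ± 0.28 (edgeR adjusted p = 0.00725, range 2.09e-08 to 0.0381), and by 1.71 ± 0.43 with the score (-0.94 without Con 1). Fgf7, Pdpn and Tgfb1 kept their call without UA+DSS 2, where 4 of the list did. Itga5, a chain of the fibronectin receptor, fell by 1.84 ± 0.43 and lost its call there and without DSS 2 or UA+DSS 1. Foxf1, a factor of gut mesenchyme counted among the regional factors, fell by 1.13 ± 0.16, also without UA+DSS 2.

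Of 21 collagen genes 13 fell (median -1.54, and -1.68 with the score, but 0.13 with the caecal genes of the score alone). Col18a1, of basement membranes, lay at 433, 415 and 570 CPM in DSS, 83.9, 48.9 and 159 CPM in UA+DSS, and 25.9 to 50.1 CPM in Con, and fell by 2.28 ± 0.39. Col1a1 did not pass, at 310, 488 and 988 CPM in DSS against 203, 51.5 and 276 CPM in UA+DSS, although the groups did not overlap (edgeR adjusted p = 0.0698, range 0.0139 to 0.205). Without UA+DSS 2 only Col18a1 of the list was called, and without DSS 2, DSS 3 or UA+DSS 1 there were 8, 7 and 7.

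Of 19 endothelial genes 17 fell, the highest share of the stromal lists, by a median of -1.34, and -1.53 with the score. Pecam1, the junction protein CD31, lay at 105, 153 and 100 CPM in DSS, 48.0, 49.6 and 47.4 CPM in UA+DSS, and 46.9 to 64.6 CPM in Con. It fell by 1.31 ± 0.18 (edgeR adjusted p = 0.00717, range 4.69e-08 to 0.0381). Tie1, an angiopoietin co-receptor, fell by 1.34 ± 0.20. The UA+DSS libraries were close to each other for both genes, and both calls held without UA+DSS 2, where 3 of the list were called, against 11 without UA+DSS 3. At an unadjusted p under 0.05 with the score, 14 of the endothelial, 15 of the fibroblast and 14 of the metalloproteinase genes were lowered, beside 11% of all genes.

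Smooth muscle genes held no edgeR call among 17, none by DESeq2 or limma-voom, and 1 gene at an unadjusted p under 0.05. Of 19 genes of enteric neurons and glia 1 fell, Npy, which lost its call without any 1 of the 6 libraries. Fat cell and red blood cell genes had no call by edgeR, DESeq2 or limma-voom among 9 and 6 tested, and none had an unadjusted edgeR p under 0.05. The 1 tested urogenital gene, Upk1b, was not called either (edgeR adjusted p = 0.743, range 0.478 to 0.983). The 8 urogenital and prostate genes together summed to 2.81 to 453 CPM in DSS and 2.75 to 6.93 CPM in UA+DSS. Con held 1.29 to 4.06 CPM and DSS+UA 2.29 to 22.7 CPM. The members other than Upk1b did not pass the filter, and the source of these counts was not tested. Of 11 pancreatic acinar genes 9 were called lower by edgeR and none by DESeq2 or limma-voom. Ctrb1, a digestive protease, lay at 4280 CPM in DSS 3 against 5.48 and 1.00 CPM in the other DSS libraries and kept its call without DSS 3, at -3.81. Of the list, 3 genes were called without DSS 3 and none without any 1 of the UA+DSS libraries. Of 6 squamous and skin genes 3 fell, among them Krt13, a keratin of stratified epithelium, from 5.53, 14.1 and 11 CPM to 0.577, 0.125 and 1.38 CPM. None of these was called without UA+DSS 2 and 1 without UA+DSS 3. Of 7 small intestine genes 2 rose, Slc10a2 and Mep1a, a brush border protease, from 21.0, 8.52 and 99.8 CPM to 300, 585 and 410 CPM. Con held 113, 559 and 343 CPM of Mep1a, lowest in the library with the high score. Mep1a lost its call without any 1 of the 6 libraries but DSS 3.

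Regional transcription factors outside the Hox clusters moved both ways, with 8 raised and 3 lowered of 27, and 3 of the 27 had a called slope. Their median was 0.47, and 0.38 with the score (-0.12 without Con 1). The list's calls went from 11 to 4 without DSS 1, 5 without UA+DSS 1, 3 without UA+DSS 2 and 6 without UA+DSS 3. Of 7 tested genes in the list of posterior Hox genes outside the score 2 rose, Hoxb9 by 1.89 ± 0.34 and Hoxd8 by 1.63 ± 0.43, and none fell. Hoxd8 is of the same paralog group as Hoxb8, a caecal gene of the score, so its rise is not that of a posterior gene. Hoxb9 lay at 22, 10.5 and 36.8 CPM in DSS, 79.9, 97.1 and 80.1 CPM in UA+DSS, and 67.4 to 82.0 CPM in Con, with 0.29 predicted. Neither was called without UA+DSS 2, and Hoxd8 was not without DSS 1, DSS 3 or UA+DSS 1. Of 8 anterior Hox genes outside the score none was called by edgeR, DESeq2 or limma-voom, and 1 had an unadjusted p under 0.05.

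**Figure D4:**
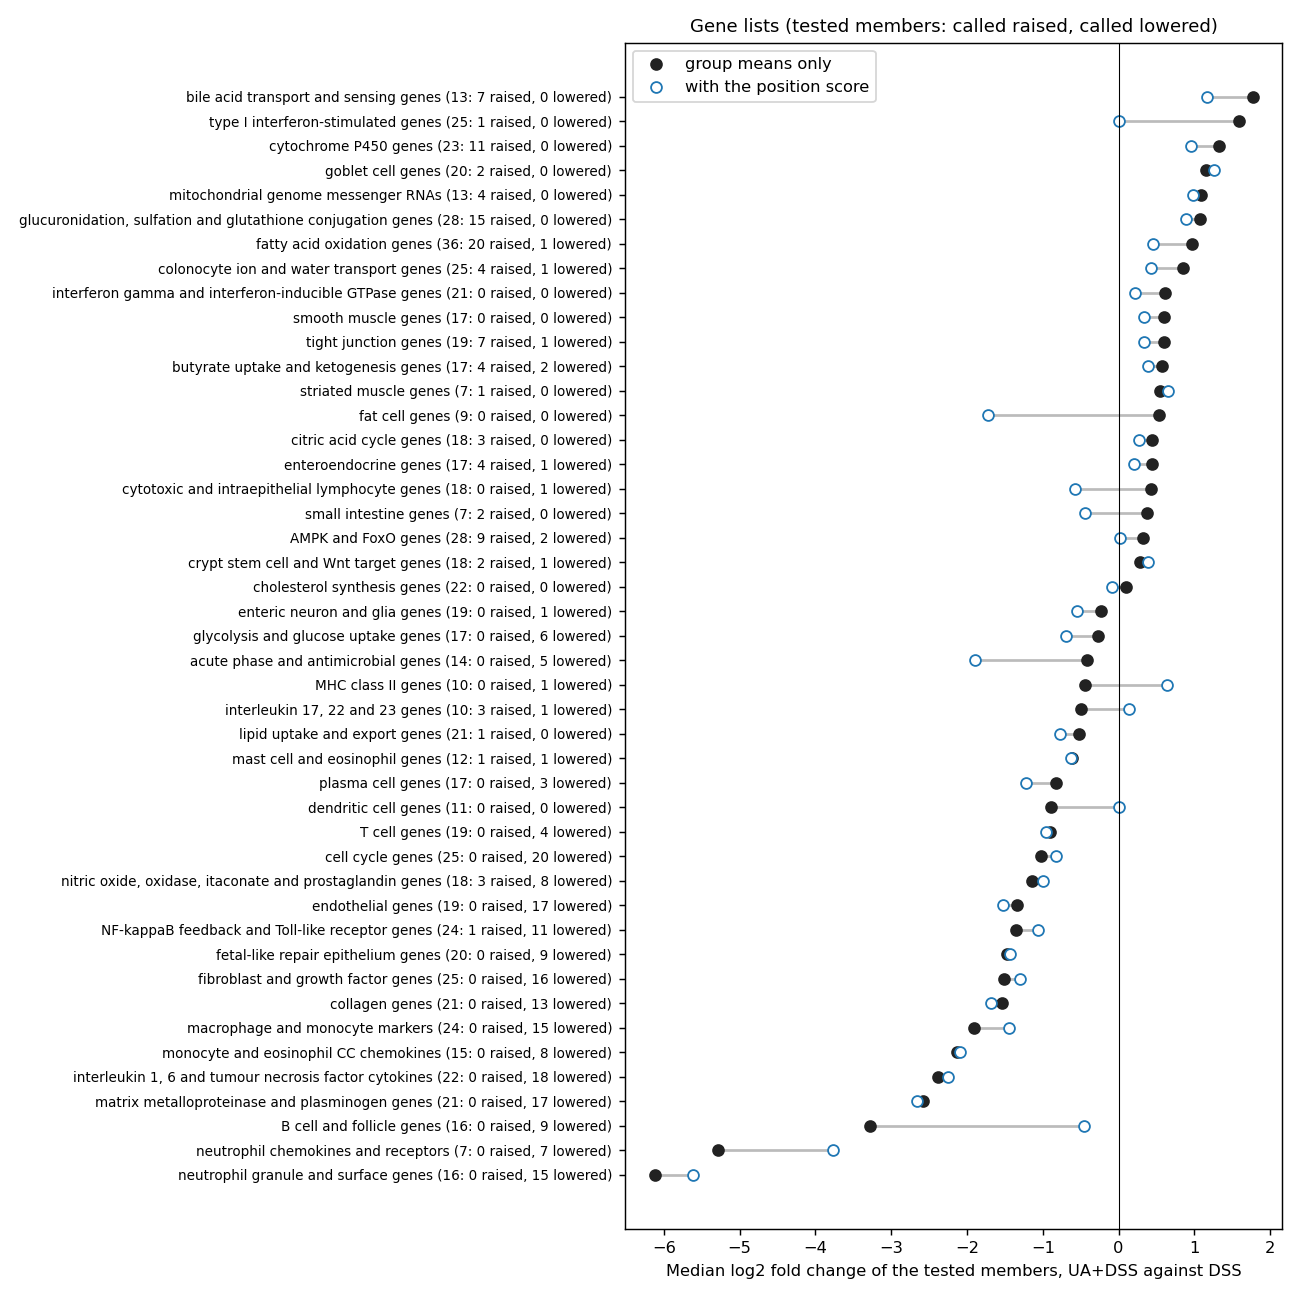
Median log2 fold change of UA+DSS against DSS for 45 gene lists with at least 7 tested members, without the score and with it (both on the horizontal axis). The metalloproteinase list lies at -2.58 and -2.66 and the endothelial list at -1.34 and -1.53, while the neutrophil chemokine list moves from -5.28 to -3.77, the B cell list from -3.28 to -0.45 and the type I interferon list from 1.59 to 0.00.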

How the data were processed

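The sample labels gave the groups and the replicate numbers. The labels name GRCm38, HISAT2, FastQC and Cuffdiff among the authors' processing, and the deposited values are the authors' counts of reads for each Ensembl gene, not normalized. How the authors counted (program, annotation release, strand, multiply matching reads) is not stated in the labels or methods. The labelled library kit does not mark strand, so counts of genes that overlap a gene on either strand are uncertain. Among those named are Aldh1a1, Mgll, Pear1, P2ry6, Cd55, Atp12a, Ccl2, Fgf7, Adamts4, Col18a1, Foxf1, Ptges, Il1r1, Hoxb3, Hoxb6, Trem1, Bank1, Ehhadh and Ereg. So are those of 16 named genes that share at least 10% of their 50-base stretches with other genes.

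Each file lists 54532 genes, and the 37 without a symbol held 0.00364% of counts. edgeR 4.0.16 in R 4.3.3 kept 17658 genes (filterByExpr), scaled by TMM and fitted a robust quasi-likelihood model to the 12 libraries (biological coefficient of variation 0.352). UA+DSS was compared with DSS, with Benjamini-Hochberg adjustment and a threshold of 0.05. A second fit added the position score (prior count 2), and a gene's predicted change is its slope times -6.51. The fits were tested on simulated counts with changes planted in 200 genes. At planted log2 changes of 1, 2 and 4 the fit without the score recovered 0%, 68.5% and 95% of them. With the score these were 0%, 29% and 80.5%, so in this setting few calls with the score did not mean few changes. In these simulated comparisons UA+DSS equalled DSS outside the 200 genes, and no gene was given a relation to the score. The rates therefore need not hold for the data. Python 3.11.15 with pandas 2.3.3 made the other values.

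The genes compared and the 54 lists, written from general knowledge, were chosen with earlier results of these data known. The text names the 11 score genes, the 5 raised and 5 lowered with the largest change (groups not overlapping, average log2 CPM 1 or more), 2 genes of the smallest p per list, genes called with the score, the 5 raised and 5 lowered with the smallest slope p and those with the smallest p with the score, and Il6, Tgfb1, Col1a1 and Itga5, measured as proteins in the study. Not all of them are printed. Alternatives were DESeq2 1.42.0, limma-voom (limma 3.58.1), other scaling and filters, a replicate block, a fit of 6 libraries, the rectal or the caecal genes of the score alone, and each library left out. Promoter sequences are from RefSeq. For the RNA the labels name Trizol and the methods RNeasy.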

Additional observations from a re-analysis of the deposited data

How the results depend on the processing

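The 3300 changed genes became 2072 in a fit of the 6 libraries only and 183 to 4112 as single libraries were left out, and other scalings, filters and tools gave 2328 to 4497. With the score, the 3 calls became 1464 with DESeq2, 17 with limma-voom or upper-quartile factors, 44 with no filter, 7 with at least 10 counts in every sample, 723 with the rectal and 0 with the caecal genes of the score alone, and 0 to 61 as libraries were left out. Of unadjusted p under 0.05 these held 4266, 3805 or 3878, 4097, 3315, 4816 and 1966. The 221 slopes became 1301 with DESeq2, 455 and 0 with the rectal and the caecal genes, and 1 to 766 as libraries were left out. The 45 changed genes with a called slope became 351, 83 and 0 in the same order, 22 with the slope from Con and DSS+UA only, which gives no fit with the score, and 0 to 46 as libraries were left out. The score difference of -6.51 ran from -7.13 to -5.76 as libraries were left out, and was -7.24 with a prior count of 0.5. The replicate block gave 3151 changed genes, 0 with the score (3780 at an unadjusted p under 0.05), 10 slopes and 1 changed gene with a slope. Without pancreatic and immunoglobulin variable genes, a choice made after seeing the data, these were 3408, 3, 237 and 51. Over all tested genes, the deviations of same-numbered UA+DSS and DSS libraries from their group means correlated at 0.048, 0.0412 and 0.174. A low correlation over all genes cannot tell whether these libraries share more than a number. Some list medians, each over the members tested in that setting, turned: posterior Hox genes outside the score to 1.00 with no filter and, as libraries were left out, from -0.50 to 0.42, interleukin 17, 22 and 23 genes to 1.04 with at least 10 counts, 0.99 in the fit of 6 libraries and -1.62 to 0.0907 as libraries were left out, MHC class II genes from -0.97 to 0.31 (without DSS 1), cytotoxic genes from 0.86 to -0.077 and AMPK and FoxO genes from 0.50 to -0.045 (both without UA+DSS 2), lipid uptake genes from -0.87 to 0.26 (without DSS 2), mast cell and squamous genes to 0.58 and 0.12 with at least 10 counts, and small intestine genes to -3.15 with no filter and from -3.73 to 2.62 as libraries were left out. With the score, medians over the same members moved by over 1.5 times to -2.60, -1.45, -0.50 and 0.10 without DSS 2 (neutrophil granule, interleukin 1 and 6, NF-kappaB and butyrate lists), to -1.01 without DSS 3 (collagen), and to -9.06, 1.42, 2.63, -0.84 and 0.87 with the caecal genes alone (neutrophil granule, glucuronidation, goblet, repair and butyrate lists). The cause was not tested. Of the other values of single genes, 5251 kept direction and side of the threshold, 377 fell short of it, 184 newly passed it and 96 moved. At this depth, genes with few counts in a group, such as Hoxd12 and Hoxd13, have no precise fold change.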
